A study of Homo sapiens with 6 samples.

Results

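Cytosolic ribosomal protein genes encode the proteins of the large and small subunits of the ribosome that translates nuclear messages. Each core protein is present once or a few times per ribosome, so cells make these proteins in matched amounts. Most of these messages begin with a C followed by a run of pyrimidines, the 5′ terminal oligopyrimidine (TOP) tract, through which growth signalling by mTORC1 sets how strongly they are translated. Several core proteins have a paralog from another gene that can take the same place in the ribosome in some tissues.

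The genes were taken from the series by symbol, as protein-coding genes whose name starts with RPL or RPS and a digit, together with RPLP0, RPLP1, RPLP2 and RPSA. The rule found 88 of the 28181 genes listed. They were 77 core genes (46 of the large subunit and 31 of the small subunit), 7 paralogs, 3 read-through genes and RPS19BP1, which encodes a protein that binds a ribosomal protein and is not itself one. The paralog RPL10L is not analysed here. A filter on low values, a mean normalized count of at least 1, was passed by 86 of the 88 genes, and the read-through genes RPL36A-HNRNPH2 and RPS10-NUDT3 were below it. A normalized count is the number of reads of a gene divided by a size factor of the library.

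RNA was sequenced from 3 libraries of UE7T-9 SHC4 and 3 libraries of UE7T-9 Cont. UE7T-9 comes from mesenchymal stem cells of human bone marrow that were made immortal by introducing hTERT and the E7 gene of human papillomavirus, and both groups carry these genes. UE7T-9 SHC4 cells overexpress SHC4, an adaptor of receptor signalling, from a lentivirus with a CMV promoter and puromycin selection, and are described as clones. UE7T-9 Cont cells are labelled nontarget with the genotype WT, whereas the methods describe a GFP vector. The labels number the libraries of each group as biological replicates 1, 2 and 3, but do not say whether these were separate infections, clones or cultures, so that p-values measure the spread between these libraries. The comparison asks how the messages of the ribosome differed when SHC4 was overexpressed.

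Each library held between 18144993 and 27721397 reads. As a check of the labels, the normalized count of SHC4 was between 56.5 and 157 in UE7T-9 Cont, and from 119166 to 155006 in UE7T-9 SHC4. All 10 mesenchymal markers passed the filter. Markers of other cell types were low in every library. The summed normalized count of the hematopoietic markers was 156 to 168 in UE7T-9 Cont, against 128 to 161 in UE7T-9 SHC4, that of the endothelial markers 130 to 152 and 89.6 to 147, and that of the epithelial markers 78.9 to 169 and 17.5 to 75.6. CDH5 and EPCAM, markers of endothelial and epithelial cells, had at most 4.92 in any library. Other markers of these lists were higher. KDR was between 28.3 and 74.2, CDH1 reached 17.6, and KRT18 and KRT8 reached 112 and 39.3 in UE7T-9 Cont replicate 3. CD3E and KRT5 are not analysed here.

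The start sites of the genes show the feature that most of them share. Windows of 30 bases, 10 before the annotated transcript start and 20 from it, are given. They are from some of the core genes with a high level or a large difference between the groups. Paralogs are shown too, most of them beside their core partners, and so are TPT1 and RACK1, which are TOP messages outside the rule. The strand is that of the gene, the build is GRCh38.p14 (RefSeq), and capitals mark the tract, which is a C at the start site followed by at least 4 bases that are C or T. Where several starts were listed, the one with the longest tract is shown. The core genes shown all have a tract, but RPL3, a core gene not shown, had none. RPL7, the partner of RPL7L1, had no listed start.
RPS19 (chr19:41860245-41860274, plus strand): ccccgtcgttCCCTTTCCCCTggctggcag
RPL10 (chrX:154398367-154398396, plus strand): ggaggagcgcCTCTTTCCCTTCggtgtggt
RPS14 (chr5:150449720-150449749, minus strand): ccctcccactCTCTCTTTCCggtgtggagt
RPLP0 (chr12:120201092-120201121, minus strand): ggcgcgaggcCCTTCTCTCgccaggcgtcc
RPL39 (chrX:119791611-119791640, minus strand): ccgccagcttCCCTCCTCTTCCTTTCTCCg
RPL22 (chr1:6199576-6199605, minus strand): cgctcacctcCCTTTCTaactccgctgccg
RPL22L1 (chr3:170870176-170870205, minus strand): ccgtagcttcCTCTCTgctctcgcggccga
RPL26 (chr17:8383174-8383203, minus strand): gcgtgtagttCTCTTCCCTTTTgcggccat
RPL26L1 (chr5:172958719-172958748, plus strand): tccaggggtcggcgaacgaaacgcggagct
RPS27 (chr1:153990752-153990781, plus strand): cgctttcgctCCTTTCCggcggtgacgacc
RPS27L (chr15:63157458-63157487, minus strand): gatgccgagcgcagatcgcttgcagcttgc
RPL36A (chrX:101391001-101391030, plus strand): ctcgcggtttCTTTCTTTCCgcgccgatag
RPL36AL (chr14:49620607-49620636, minus strand): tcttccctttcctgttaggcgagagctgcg
RPL7L1 (chr6:42879606-42879635, plus strand): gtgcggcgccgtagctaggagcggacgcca
TPT1 (chr13:45341164-45341193, minus strand): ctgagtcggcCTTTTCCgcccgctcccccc
RACK1 (chr5:181243887-181243916, minus strand): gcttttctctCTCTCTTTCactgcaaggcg

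Of the 88 genes, 69 had a promoter in the RefSeq table. A tract at a listed start was found for 46 of 62 core genes (74.2%) and for 1 of 5 paralogs, RPL22L1. Translation factors listed because their messages are of the TOP class had it in 13 of 15 cases. By contrast, it was found for 6 of 52 ribosome biogenesis genes (11.5%), for 6 of 69 mitochondrial ribosomal protein genes (8.70%) and for 1404 of all 27305 genes in the table (5.14%). Among genes of the series whose mean was 50 or more, 742 of 9700 (7.65%) had it. Over single starts, 4.07% of the 35116 promoters held it. With a start allowed to lie up to 5 bases to either side, 53 of 62 core genes (85.5%) and 25.2% of all genes had a tract. The share was 30.0% for genes whose mean was 50 or more. A match describes the letters at the annotated start and not which start these cells used.

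Most ribosomal protein genes were higher in UE7T-9 SHC4, by a small amount, and none passed the test. Of the 86 genes tested, 77 (89.5%) had a log2 fold change above 0, compared with 49.7% of all 23040 genes tested. All 46 large subunit genes and 29 of 31 small subunit genes were on the higher side (43 and 27 with library size scaling), and 2 core genes, RPS24 among them, were on the lower side. The median log2 fold change was 0.26 over the 86 genes and 0.28 over the core genes, against -0.004 over all genes. The log2 fold changes of the core genes lay between -0.14 and 0.58, with standard errors between 0.14 and 0.42. With limma and Benjamini-Hochberg adjustment over all genes, 0 of 86 genes were called at an adjusted p below 0.05, where the background was 0.0651% of all genes. The smallest adjusted p among them was 0.183 from limma, for RPL39L. At an unadjusted p below 0.05, limma had 5 of the 86 genes, RPL22, RPL39 and RPS25 higher and RPL39L and RPL7L1 lower, with a background of 14.4%. Neither DESeq2 (background 4.14%) nor the edgeR quasi-likelihood test (background 0.0694%) called any of the genes on the recovered reads, with 6 (background 10.4%) and 4 (background 17.6%) of them at an unadjusted p below 0.05. A limma fit blocked on replicate also called 0 of 86 genes, and 38 of them were at an unadjusted p below 0.05 (background 17.5%). The number of genes on the higher side was 71 when reads were scaled by library size, where the median log2 fold change was 0.15 over the 86 genes and -0.10 over all genes.

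**Figure D1:**
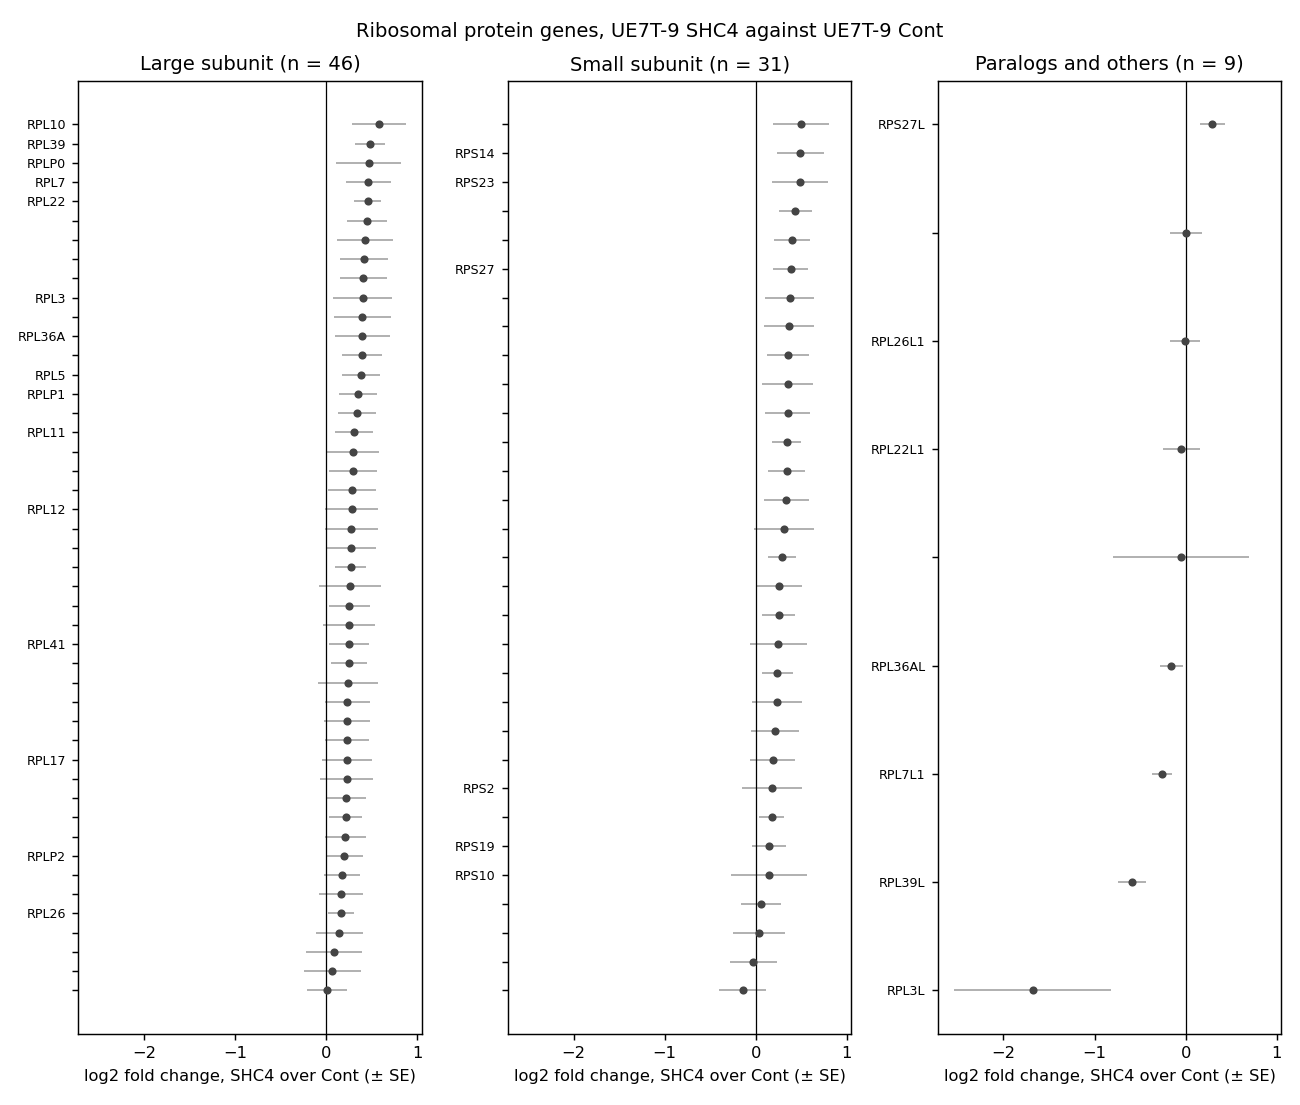
Log2 fold change of UE7T-9 SHC4 over UE7T-9 Cont (horizontal axis, on the log2(normalized count + 1) scale) for each of the 86 ribosomal protein genes tested. Points are limma estimates and bars the standard error, and genes described by a fixed rule are named. All 46 large subunit genes and 29 of 31 small subunit genes lie above 0 (43 and 27 with library size scaling), and 6 of the 7 paralogs lie below it (5 with TMM scaling). RPL26L1 and RPL22L1 are the paralogs nearest to 0.

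The libraries behind these values were not arranged by group alone. As a deviation from the mean of the 6 libraries on the log2 scale, the median core gene stood at 0.36, -0.30 and -0.48 in replicates 1, 2 and 3 of UE7T-9 Cont. In UE7T-9 SHC4 it was at 0.51, -0.044 and -0.028 in replicates 1, 2 and 3. Replicate 1 of both groups was thus high, replicates 2 and 3 of UE7T-9 Cont were low, and replicates 2 and 3 of UE7T-9 SHC4 lay between them. The median of all genes stayed between -0.002 and 0.019 in every library. The size factors, which DESeq2 takes from the median ratio of the genes, hold it near 0 by design.

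The order was shared by nearly all core genes. Both replicates numbered 1 lay above the other 4 libraries for 72 of the 86 genes and 69 of the 77 core genes, where the background was 11.9% of all genes. UE7T-9 SHC4 replicate 1 was the highest library for 69 of 77 core genes and UE7T-9 Cont replicate 3 the lowest for 67 of them. UE7T-9 Cont replicate 1 exceeded UE7T-9 SHC4 replicates 2 and 3 for 70 of 77 core genes, which made the groups overlap. Within UE7T-9 Cont, replicate 1 stood above the mean of replicates 2 and 3 by a median of 0.66 on the log2 scale, a larger difference than that between the groups.

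**Figure D2:**
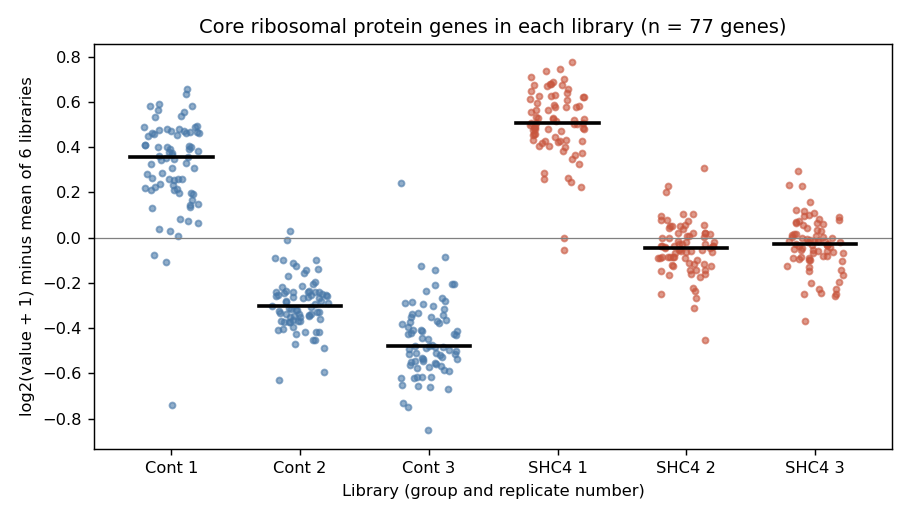
Each point is 1 of 77 core ribosomal protein genes, plotted as its log2(normalized count + 1) minus the mean of the 6 libraries (vertical axis) for each library (horizontal axis), with a line at the median. Replicate 1 of both groups lies highest, with medians of 0.36 and 0.51, and UE7T-9 Cont replicate 3 lowest, with a median of -0.48.

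After the libraries were seen, the groups were also compared for replicate 1 alone and for the means of replicates 2 and 3. The median ribosomal protein gene was higher in UE7T-9 SHC4 in both cases. The first case sets 1 library against 1, and the genes move together. Counts of genes are therefore not replicates and add no second test of the groups. Whether the numbers pair the libraries is not settled. UE7T-9 SHC4 replicate 1 was above UE7T-9 Cont replicate 1 for 77 of 86 genes (48.2% of all genes), with a median difference of 0.15 on the log2 scale. Replicates 2 and 3 of UE7T-9 SHC4 were above replicates 2 and 3 of UE7T-9 Cont, as means, for 75 of 86 genes (48.9% of all genes). The median difference was 0.32. Groups of 3 that did not overlap were found for 5 of 86 genes, RPL22, RPL39 and RPS27L higher and RPL39L and RPL7L1 lower, where the background was 9.13% higher and 10.2% lower. UE7T-9 Cont replicate 1 decided these counts. Without it, 68 of 86 genes lay higher in all 3 UE7T-9 SHC4 libraries, with a background of 18.6%, and the median log2 fold change was 0.50. The limma test then called 3 of 86 genes (3.49%) higher. They were RPL22 (adjusted p = 0.0186 from limma), RPL10 (adjusted p = 0.0498 from limma) and RPS23 (adjusted p = 0.0498 from limma). The background was 2.99%, so the share was near it and the count is not a result about these genes. Without UE7T-9 SHC4 replicate 1, the median was 0.086 and 62 of 86 genes were on the higher side.

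The 88 genes took 3.72%, 2.53% and 2.38% of the reads in replicates 1, 2 and 3 of UE7T-9 Cont. Their share was 4.17%, 2.80% and 2.83% in UE7T-9 SHC4 replicates 1, 2 and 3. The means were 2.88% ± 0.732 and 3.27% ± 0.782 (SD, n = 3 each), a difference of 0.390 percentage points that was smaller than the spread between replicates and was -0.061 without UE7T-9 SHC4 replicate 1. The ratio of large to small subunit messages, summed over the core genes, was 1.70, 1.66 and 1.62 in UE7T-9 Cont, against 1.72, 1.67 and 1.71 in UE7T-9 SHC4 (exact permutation test, two-sided p = 0.2). The subunits therefore kept nearly the same proportion in libraries whose total ribosomal protein reads differed.

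Other lists also differed between these libraries, but not all in the same order. Of the mesenchymal markers, 8 of 10 were on the higher side and 2 on the lower, so they did not all move together. The list had a median deviation of 0.32, -0.37 and -0.54 in UE7T-9 Cont, against 0.30, 0.030 and 0.13 in UE7T-9 SHC4. This order was close to that of the ribosomal protein genes. Without UE7T-9 Cont replicate 1, limma called PDGFRB (adjusted p = 0.000698), THY1 (adjusted p = 0.00167) and PDGFRA (adjusted p = 0.0322) of this list higher and the epithelial marker KRT18 lower (adjusted p = 0.0498), with a background of 5.68%. The summed normalized count of the mesenchymal markers was 234772 to 695773 in UE7T-9 Cont, against 409686 to 611855 in UE7T-9 SHC4. The 13 messages encoded by the mitochondrial genome followed another order, with -0.94, 0.10 and 0.053 in UE7T-9 Cont, against -0.38, 0.65 and 0.41 in UE7T-9 SHC4. Replicate 1 was thus the lowest library of each group for these messages. Other protein-coding genes whose mean was 50 or more were cut into sets by GC content and by transcript length. The 2924 with the highest GC content had 0.064, -0.086 and -0.14 in UE7T-9 Cont, against 0.14, 0.062 and -0.028 in UE7T-9 SHC4. Their median GC content was 61.1% and their median log2 fold change was 0.12. The 2928 with the shortest transcripts had 0.015, -0.006 and -0.019 in UE7T-9 Cont, against 0.074, -0.037 and -0.013 in UE7T-9 SHC4, and their median log2 fold change was 0.011. The core genes themselves were short, with a median of 705 nucleotides, and had a median GC content of 49.6%. This GC content lay between those of the sets of other genes with medians of 45.3% and 52.7%. Those sets had median log2 fold changes of -0.042 and 0.0083 (n = 2924 each). The part of any of these in the difference between the groups was not tested, and in bulk RNA a change in the mix of cells and a change of message per cell cannot be told apart.

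The 5 genes with the largest positive log2 fold change had their highest value in UE7T-9 SHC4 replicate 1. RPL10, which joins the large subunit late in its assembly, was at 12657, 7022 and 5856 in replicates 1, 2 and 3 of UE7T-9 Cont and at 16491, 9976 and 10606 in those of UE7T-9 SHC4, the order used for all genes below. Its log2 fold change was 0.58 (SE 0.30, adjusted p = 0.414 from limma), and UE7T-9 Cont replicate 1 lay inside the range of UE7T-9 SHC4. RPS14, whose loss contributes to the anemia of the 5q deletion syndrome, was at 10931, 6907 and 6072 in UE7T-9 Cont and at 14570, 8996 and 9654 in UE7T-9 SHC4 (log2 fold change 0.49, SE 0.26). RPS23, a protein of the decoding centre, was at 6332, 3015 and 2967 in UE7T-9 Cont and at 7444, 4668 and 4500 in UE7T-9 SHC4 (log2 fold change 0.49, SE 0.31). In all 3 genes UE7T-9 Cont replicate 1 exceeded UE7T-9 SHC4 replicates 2 and 3.

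RPL39 and RPL22 were the 2 core genes whose groups did not overlap. RPL39, a small protein that lines the exit tunnel of the large subunit, was at 3513, 2958 and 2474 in UE7T-9 Cont and at 4782, 3593 and 4106 in UE7T-9 SHC4. Its log2 fold change was 0.49 (SE 0.17, adjusted p = 0.248 from limma). RPL22 (ENSG00000116251, chr1:6185020-6209389), an RNA-binding protein on the surface of the large subunit, was at 2050, 1540 and 1448 in UE7T-9 Cont and at 2326, 2237 and 2281 in UE7T-9 SHC4. The log2 fold change was 0.46 (SE 0.15, adjusted p = 0.224 from limma). The 3 UE7T-9 SHC4 libraries were nearly equal for RPL22 (2282 ± 44.5, SD, n = 3), and its r with the mean of the other core genes over the 6 libraries was 0.78. RPS25 of the small subunit was at 5576, 4136 and 4042 in UE7T-9 Cont and at 7591, 5464 and 5565 in UE7T-9 SHC4, so that its groups overlapped by a narrow margin (log2 fold change 0.44, SE 0.18, adjusted p = 0.324 from limma).

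Proteins of the P stalk, which recruits translation factors to the large subunit, were all on the higher side without passing the test. RPLP0, its base, was at 33742, 17136 and 12660 in UE7T-9 Cont and at 36779, 22119 and 23906 in UE7T-9 SHC4 (log2 fold change 0.47, SE 0.35). RPLP1 was at 14984, 10395 and 9919 in UE7T-9 Cont and at 17930, 13108 and 13685 in UE7T-9 SHC4 (log2 fold change 0.35, SE 0.21). RPLP2 was at 7368, 5162 and 4485 in UE7T-9 Cont and at 7704, 5664 and 5937 in UE7T-9 SHC4 (log2 fold change 0.20, SE 0.21). In each of the 3, UE7T-9 SHC4 replicates 2 and 3 lay between the highest and the other control libraries. RPL12, on which the stalk sits, had a log2 fold change of 0.28 (SE 0.29). RPLP0 had the largest standard error of these 4 genes, and its UE7T-9 Cont replicate 1 stood far above the other control libraries. RPL5 and RPL11 bind the 5S RNA and, outside the ribosome, the p53 regulator MDM2. RPL5 was at 13168, 9405 and 7601 in UE7T-9 Cont and at 14241, 11775 and 12480 in UE7T-9 SHC4 (log2 fold change 0.38, SE 0.21). RPL11 was at 9180, 6674 and 5917 in UE7T-9 Cont and at 11084, 7650 and 8089 in UE7T-9 SHC4 (log2 fold change 0.31, SE 0.21). Both had all their libraries in the order of the core genes, with replicate 1 highest in each group.

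Lists of core genes by place in the ribosome had medians near that of all core genes. The 8 genes of the exit tunnel had a median log2 fold change of 0.23, the 14 genes of the small subunit head 0.25 and the 20 genes linked to Diamond-Blackfan anemia or the 5q deletion 0.21, with 8, 13 and 18 genes on the higher side (7, 12 and 16 with library size scaling). Limma called 0 genes in each. At an unadjusted p below 0.05, limma had 1 gene of the exit tunnel, 1 of the small subunit head and 0 of the anemia genes, where the background was 14.4%.

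Most paralogs had a log2 fold change below 0, some of them only slightly, and none passed the test. Of the 7 paralogs, 6 had a log2 fold change below 0 (5 with TMM scaling, where RPL26L1 was above 0), and only RPS27L was above it. The median over the paralogs was -0.16, and 49.7% of all genes were above 0. RPL26L1 and RPL22L1 were near 0 and turned direction when 1 library was left out. RPL39L, RPL7L1 and RPL36AL stayed below 0 with any library left out, as did RPL3L, which had few reads. RPL39L (ENSG00000163923, chr3:187120948-187180908), the paralog of RPL39 known from male germ cells, was at 505, 450 and 540 in UE7T-9 Cont and at 393, 309 and 296 in UE7T-9 SHC4. Its log2 fold change was -0.59 (SE 0.16, adjusted p = 0.183 from limma and adjusted p = 0.0574 from DESeq2), the largest in size among the ribosomal protein genes whose mean was 50 or more, and the groups did not overlap. The ratio of RPL39L to RPL39 was 0.144, 0.152 and 0.218 in UE7T-9 Cont, against 0.0822, 0.0859 and 0.0720 in UE7T-9 SHC4. All UE7T-9 SHC4 ratios were below all UE7T-9 Cont ratios, with means of 0.0800 ± 0.0072 and 0.171 ± 0.0409 (SD, n = 3 each). In the exact permutation test the two-sided p was 0.1, the smallest that 3 libraries against 3 allow. Over the 8 ratios tested in this way, the smallest Benjamini-Hochberg adjusted p of the exact permutation test was 0.32.

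RPL7L1, a paralog of RPL7 that works in ribosome assembly in the nucleolus, was at 3690, 3480 and 3586 in UE7T-9 Cont and at 3154, 2944 and 2901 in UE7T-9 SHC4 (log2 fold change -0.26, SE 0.11, adjusted p = 0.345 from limma). Its groups did not overlap, and its libraries of 1 group were close together. RPL7 itself was at 12109, 7575 and 6650 in UE7T-9 Cont and at 15050, 10011 and 10638 in UE7T-9 SHC4 (log2 fold change 0.46, SE 0.25). The ratio of RPL7L1 to RPL7 was 0.305, 0.459 and 0.539 in UE7T-9 Cont, against 0.210, 0.294 and 0.273 in UE7T-9 SHC4 (exact permutation test, two-sided p = 0.1). The highest UE7T-9 SHC4 ratio was just below the lowest of UE7T-9 Cont.

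RPL22L1, which replaces RPL22 where the latter is lost, was at 1738, 1430 and 1340 in UE7T-9 Cont and at 1988, 1209 and 1262 in UE7T-9 SHC4 (log2 fold change -0.045, SE 0.20). The ratio of RPL22L1 to RPL22 was 0.848, 0.929 and 0.925 in UE7T-9 Cont, against 0.855, 0.540 and 0.553 in UE7T-9 SHC4 (exact permutation test, two-sided p = 0.2). Replicates 2 and 3 of UE7T-9 SHC4 had a low ratio, whereas replicate 1 fell among the controls. RPL22L1 was the paralog with a tract at its start, and its r with the mean of the core genes was 0.77. For comparison, r was -0.18 for RPL39L, -0.16 for RPL7L1 and -0.055 for RPL36AL.

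RPL36AL, the paralog of RPL36A, was at 2056, 2031 and 2178 in UE7T-9 Cont and at 2057, 1653 and 1931 in UE7T-9 SHC4 (log2 fold change -0.16, SE 0.12). RPL26L1, the paralog of RPL26, was at 634, 552 and 546 in UE7T-9 Cont and at 716, 539 and 491 in UE7T-9 SHC4. Its log2 fold change was -0.0036 (SE 0.16) and was above 0 in DESeq2, in edgeR and with TMM scaling. Ratios of both to their partners overlapped between the groups (exact permutation test, two-sided p = 0.2 for RPL36AL and 0.3 for RPL26L1). They rest on the low counts of RPL36A and RPL26, whose exons overlap those of other genes. RPL3L, a paralog of RPL3 made in heart and skeletal muscle, was at 6.82, 24.7 and 6.89 in UE7T-9 Cont and at 7.03, 4.99 and 0 in UE7T-9 SHC4, where 3 reads correspond to at most 3.53 in any library, while RPL3 had a mean of 23223 and 29738.

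RPS27L, a paralog of RPS27 that is induced by p53, was at 5133, 5630 and 5955 in UE7T-9 Cont and at 7447, 6116 and 6987 in UE7T-9 SHC4. The groups did not overlap (log2 fold change 0.30, SE 0.14, adjusted p = 0.372 from limma). UE7T-9 Cont replicate 1 was the lowest library here, unlike for the core genes. RPS27 was at 7523, 5428 and 5283 in UE7T-9 Cont and at 9735, 6851 and 7205 in UE7T-9 SHC4 (log2 fold change 0.39, SE 0.19), and the ratio of RPS27L to RPS27 overlapped between the groups (exact permutation test, two-sided p = 0.7).

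**Figure D3:**
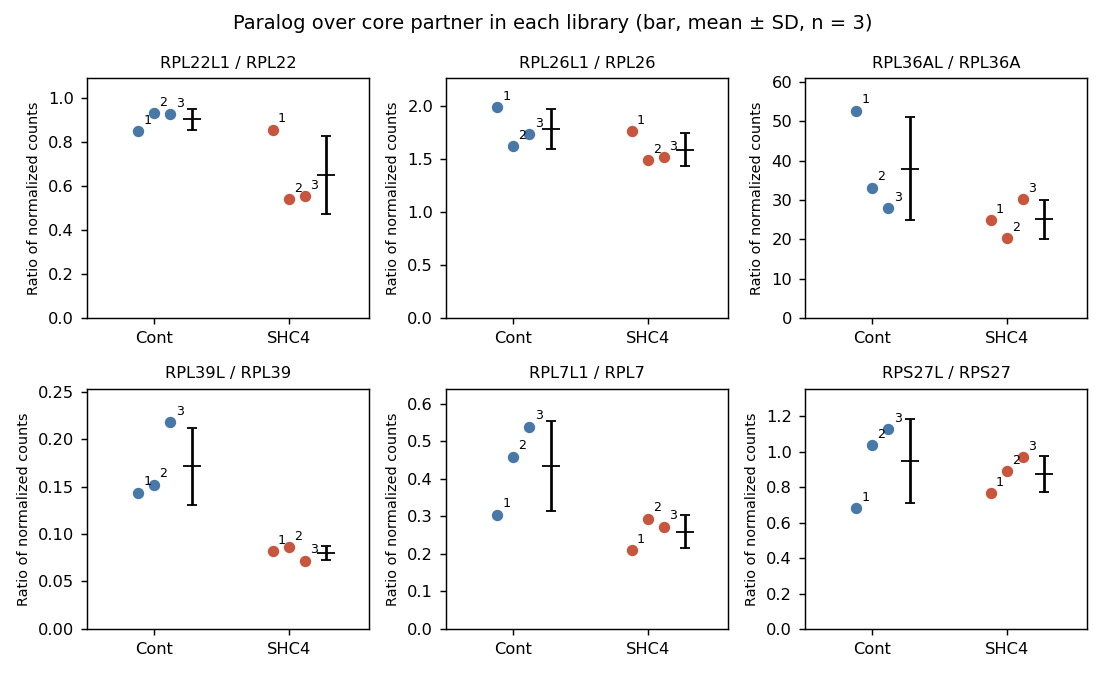
Ratio of the normalized count of a paralog to that of its core partner (vertical axis, from 0, a separate scale in each panel) in UE7T-9 Cont and UE7T-9 SHC4. Points are libraries with their replicate number and bars the mean ± SD (n = 3). The groups lie apart for RPL39L over RPL39 and for RPL7L1 over RPL7, and overlap in the other panels.

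Levels between genes were compared as normalized counts per kilobase of transcript, as means of the 6 libraries. RPS19, a small subunit protein mutated in Diamond-Blackfan anemia, had the highest level with 34193, followed by RPL41, the smallest ribosomal protein, with 26394 and RPS2 with 22648. The ranges of these over the libraries overlapped. With the longest principal transcript as the length, RPS2 had the highest level. The lowest levels were those of RPS10 (24.4), RPL36A (158) and RPL17 (278). Over the 77 core genes the median was 10385.

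These 3 genes overlap another gene in GENCODE 29. Of 76 core genes whose overlap is reported here, 4 had at least 50% of their exon bases shared with another gene on the same strand. RPL17 shared 91.0% with RPL17-C18orf32, RPS10 shared 84.0% with RPS10-NUDT3, RPL36A shared 77.6% with RPL36A-HNRNPH2, and RPL26 shared 65.3% with AC135178.2. These 4 genes lay between 24.4 and 650 normalized counts per kilobase, and the other 72 core genes between 902 and 34193. The read-through genes took few reads themselves, with at most 2.35 in any library. Counters of reads commonly leave out a read that falls on more than 1 gene, but the counting options are not given in the sources used here, and their part in these levels was not tested. RPS15A, with 41.5% of its exon bases shared, was at 2755 per kilobase, below the median of the core genes. Values of these 5 genes are therefore uncertain. The strand setting is not given either. RPL10 and RPS25 shared 46.7% and 36.6% of their exon bases with genes on the opposite strand only. Their values carry the same limit if reads were counted without regard to strand, as do those of other core genes with such overlap.

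**Figure D4:**
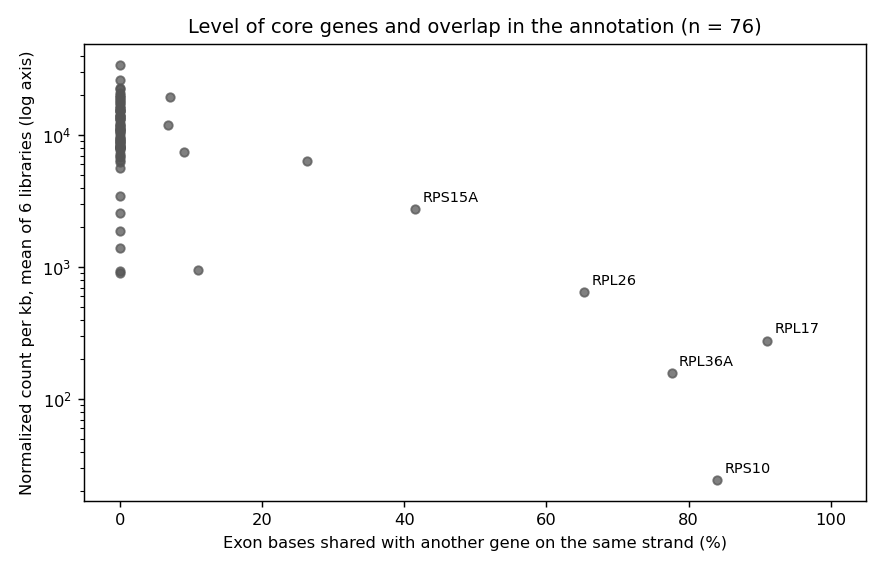
Normalized count per kilobase as a mean of 6 libraries (vertical log axis) against the percent of exon bases shared with another gene on the same strand (horizontal axis) for 76 core genes, with the names of the 5 that share the largest percent. The 4 genes that share at least 50% lie between 24.4 and 650, below all others.

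Most core genes shared the order of libraries. Across the 6 libraries, 67 of 77 core genes had r above 0.9 with the mean of the other core genes, given as a description since all points share libraries. The lowest values were -0.24 for RPL36A, 0.073 for RPS15A, 0.58 for RPL26 and 0.67 for RPS10. Sequence shared with other genes is a further limit, since 76 of 77 core genes shared at least 1 stretch of 50 bases with another annotated gene, and 24 shared at least 50% of them. The summed reads of ribosomal protein pseudogenes were 0.0448 to 0.0496 of those of the core genes in the 6 libraries, without a separation of the groups (exact permutation test, two-sided p = 0.5).

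Outside the rule, 12595 genes whose mean was 50 or more were compared with the mean of the core genes over the 6 libraries. The 5 most alike were ITGB1BP1, PRKAR1B, MAP2K2, TNXB and the pseudogene RPL10P9, with r between 0.994 and 0.999. As the highest of so many correlations over 6 libraries, these values are only a description. Whether RPL10P9 and RPL10 share reads was not tested. A ribosomal protein fused to a ubiquitin-like protein is encoded by FAU, whose symbol falls outside the rule. FAU was at 3884, 2794 and 2299 in UE7T-9 Cont and at 4226, 2819 and 2777 in UE7T-9 SHC4 (log2 fold change 0.14, SE 0.22). It was highest in replicate 1 of both groups and lowest in UE7T-9 Cont replicate 3.

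All 20 translation factors of the TOP class that were tested were on the higher side (15 with library size scaling). Their median log2 fold change was 0.25, and limma called 0 of them. EEF1G is not analysed here. Their median deviation was 0.34, -0.25 and -0.38 in UE7T-9 Cont, against 0.33, -0.060 and 0.057 in UE7T-9 SHC4. RACK1, a scaffold on the small subunit, was at 21049, 13102 and 10455 in UE7T-9 Cont and at 24137, 15632 and 16608 in UE7T-9 SHC4 (log2 fold change 0.37, SE 0.28). EEF1A1, which delivers aminoacyl-tRNA, had a log2 fold change of 0.42 (SE 0.43) and EEF2, which drives translocation, 0.30 (SE 0.34). TPT1 (log2 fold change 0.52, SE 0.22, adjusted p = 0.330 from limma) and the helicase EIF4A2 (0.22, SE 0.14) were the 2 members of this list whose groups did not overlap, where the background was 9.13% higher. TPT1 and EIF4A2, chosen for this after their values were seen, had their highest value in UE7T-9 SHC4 replicate 3. Among 684 protein-coding genes outside the rule that had a tract at a listed start and a mean of at least 50, 57.0% were on the higher side and the median log2 fold change was 0.059, compared with 48.5% and -0.01 for 8725 genes without one.

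Genes that build ribosomes were mostly on the lower side, and none passed the test. Of 62 ribosome biogenesis genes, 50 had a log2 fold change below 0, with a median of -0.11, and limma, DESeq2 and edgeR called 0 of them. The groups did not overlap in 16 genes that were lower and 2 that were higher, where the background was 10.2% and 9.13%, and limma had 11 lower at an unadjusted p below 0.05 (background 6.96%). DDX21, an RNA helicase of the nucleolus, was at 3099, 3292 and 3815 in UE7T-9 Cont and at 2710, 1994 and 2289 in UE7T-9 SHC4 (log2 fold change -0.55, SE 0.15, adjusted p = 0.185 from limma and adjusted p = 0.0504 from DESeq2). NOP56, a core protein of box C/D snoRNPs, was at 2711, 2651 and 3053 in UE7T-9 Cont and at 2375, 1817 and 1800 in UE7T-9 SHC4 (log2 fold change -0.50, SE 0.14, adjusted p = 0.197 from limma). These 2 genes, named after their values were seen, had no UE7T-9 SHC4 library inside the range of the controls. The median deviation of the list was 0.084, 0.043 and 0.10 in UE7T-9 Cont, against 0.066, -0.16 and -0.14 in UE7T-9 SHC4, so that replicates 2 and 3 of UE7T-9 SHC4 were low and replicate 1 was near the controls.

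Of 15 genes of RNA polymerase I and its factors, 10 were on the lower side (13 with library size scaling). RRN3, which brings the polymerase to the ribosomal DNA promoter and was named after its values were seen, was at 932, 1284 and 1377 in UE7T-9 Cont and at 797, 805 and 840 in UE7T-9 SHC4 (log2 fold change -0.54, SE 0.16, adjusted p = 0.200 from limma). Proteins of the mitochondrial ribosome, which are encoded by other genes, were on the lower side in 55 of 78 cases (67 with library size scaling) with a median of -0.10. Host genes of snoRNAs were on the higher side in 9 of 14 cases, and GAS5, a TOP message, was at 2709, 1711 and 1448 in UE7T-9 Cont and at 3334, 1562 and 1831 in UE7T-9 SHC4 (log2 fold change 0.17, SE 0.30). Limma called 0 genes in each of these lists.

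Among 20 regulators of TOP messages and mTORC1, 9 were on the higher side and 11 on the lower (10 and 10 with TMM scaling, 6 and 14 with library size scaling), and limma called 0. MYC, a transcription factor that drives ribosome production, was at 1377, 709 and 584 in UE7T-9 Cont and at 1101, 632 and 621 in UE7T-9 SHC4 (log2 fold change -0.13, SE 0.32). Like the core genes, it was high in replicate 1 of both groups. The groups did not overlap for MTOR, RHEB, RPTOR, EIF4E and RPS6KB1, all lower, nor for MXD4, which was higher, where the background was 10.2% lower and 9.13% higher. Their log2 fold changes were small, from -0.34 for EIF4E to -0.17 for RPTOR, and 0.48 for MXD4. Without UE7T-9 Cont replicate 1, limma called 8 genes of the ribosome and translation lists, with a background of 5.68%. EIF4B and EIF3L of 20 translation factors, and DEPTOR and MXD4 of 20 regulators, were higher. Of 62 ribosome biogenesis genes, MDN1 was higher and DDX10 and WDR43 lower, and of 15 RNA polymerase I genes RRN3 was lower. Over these lists together the share called was near the background, so the count is not a result about them.

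**Figure D5:**
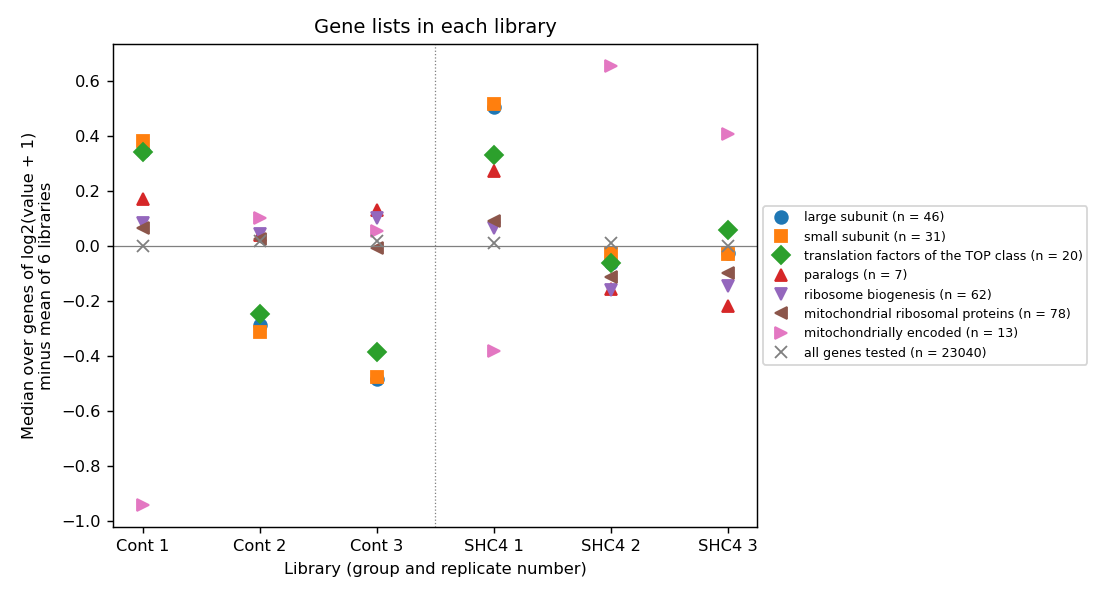
Median over the genes of a list of log2(normalized count + 1) minus the mean of the 6 libraries (vertical axis) for each library (horizontal axis). Ribosomal protein genes of both subunits and TOP-class translation factors are highest in replicate 1 of both groups. Ribosome biogenesis genes are lowest in UE7T-9 SHC4 replicates 2 and 3. All genes stay near 0, where the size factors hold them by design.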

How the data were processed

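For every gene the authors deposited a signal in each library, a normalized count made by dividing reads by 1 size factor. Per the labels, tools were HISAT2 2.0.5, featureCounts 1.5.0-p3 and DESeq2. Genome build, annotation and strand setting are not given in the sources used here. Reads were recovered by division (100% of values whole, tolerance 0.01), 18144993 to 27721397 per library. Symbols and positions came from GENCODE 29 (GRCh38), matched by Ensembl identifier, and transcript length was that of the shortest basic transcript with the principal coding sequence.

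The main test was limma 3.58.1 (lmFit, eBayes with trend) on log2(value + 1), run in R 4.3.3 over the 23040 genes whose mean was 1 or more, and p-values were adjusted over all of them (Benjamini-Hochberg). Fold changes of genes with few reads are understated on this scale. Calls required an adjusted p below 0.05, without a fold threshold. DESeq2 1.42.0 and edgeR 4.0.16 were run on recovered reads. Ratios of single genes were compared by an exact permutation test in SciPy, two-sided. Scripts were tested on simulated counts.

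The genes and lists were chosen with earlier results of these data known. Named were genes called by any tool, the 5 largest log2 fold changes in each direction at a mean of at least 50, the 3 highest and 3 lowest core genes per kilobase, paralogs with their partners, the P stalk, RPL5 and RPL11, and FAU, RACK1, EEF1A1, EEF2, MYC and GAS5. Other genes were named after their values were seen, and values of some genes are not reported here. With all 6 libraries, DESeq2 alone called the marker genes PDGFRB, higher, and KRT18, lower. Alternatives were other pseudocounts, filters, scalings and call rules, a replicate block and leaving out each library.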

Additional observations from a re-analysis of the deposited data

How the results depend on the processing

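The number of genes on the higher side stayed at 62 to 82 of 86 and the median log2 fold change at 0.086 to 0.50 when each library was left out in turn. Under the other alternatives the number was 71 to 80 (of 77 core genes, or of the 84 to 88 genes that had a value), and 75 with replicates 2 and 3 of each group only, a setting chosen after the libraries were seen. Leaving out 1 library gave 0 to 3 genes called among the ribosomal protein genes, 0 to 8 in the other lists, 6 to 70 genes whose groups did not overlap and a difference in read share of -0.061 to 0.81 percentage points. The highest of each came without UE7T-9 Cont replicate 1. In that setting 5.68% of all genes were called, and 18.6% lay higher in all UE7T-9 SHC4 libraries. The unadjusted p rule gave 5 of 86 ribosomal protein genes and 18 genes of the other lists, where the background was 14.4%. The other lists held 2, 20, 62, 15, 14 and 20 genes tested, so neither count stood above the background. Directions turned when 1 library was left out for RPL22L1 (-0.27 to 0.085), RPS2 (-0.099 to 0.51), RPS10 (-0.058 to 0.37), RPL17 (-0.037 to 0.42) and RPL26L1 (-0.16 to 0.11). RPL26L1 also turned with TMM scaling (0.0072), edgeR (0.017) and DESeq2 (0.013). The cause was not tested. Of 446 values for single named genes, 430 kept their direction and side of the threshold.

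In the fit with a replicate block, limma called 0 of 86 ribosomal protein genes and 0 of the other lists (smallest adjusted p = 0.116), with 77 of 86 on the higher side, a median of 0.26, and 38 at an unadjusted p below 0.05 (background 17.5%). Same-numbered libraries correlated in their deviations from the group means at 0.15, 0.013 and -0.007 over 23040 genes and at 0.41, 0.15 and 0.15 over the 12678 whose mean was 50 or more. UE7T-9 Cont replicate 2 correlated best with UE7T-9 SHC4 replicate 3 over both sets of genes. The labels name no shared batch for a number, so whether the numbers pair the libraries is not settled.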
